A study of Mus musculus with 105 samples.

Results

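miR-708 is a mouse microRNA (miRNA) whose hairpin lies inside Tenm4, the gene of the adhesion receptor teneurin-4. Its 3 measured members are the strands mmu-miR-708-5p and mmu-miR-708-3p, out of 1013 mature miRNAs counted, and Tenm4 (ENSMUSG00000048078), out of 54532 genes in the mRNA table. The members were selected on the input miRNA levels, where miR-708-5p stood among the largest differences between contact-inhibited and dividing fibroblasts, so levels between lines are given for the strands as a description, with no test. All cells were from mouse. Those of the labelled small-RNA libraries grew with 5-ethynyluridine (5EU), which is built into RNA in place of uridine, so that RNA made since its addition can be tagged and pulled down. For the mRNA libraries no 5EU dose or labelling time is given. An EU library holds the small RNA pulled down after a given labelling time, while the small RNA before that selection, the standing pool, makes up an input library.

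The groups were CIMEF lacking Cyrano (a long noncoding RNA known to direct the decay of miR-7), labelled for 2 h to 1 week with 400 µM 5EU in 1 time course; ESC, the embryonic stem cell line v6.5, labelled for up to 24 h with 125 µM 5EU in 2 courses; CIMEF, embryonic fibroblasts kept contact-inhibited before labelling, for up to 1 week with 400 µM in 2 courses; and DMEF, dividing embryonic fibroblasts, for up to 72 h with 400 µM in 2 courses. Libraries at 0 h exist for course 1 of ESC, CIMEF and DMEF. Messenger RNA was measured in 2 libraries each of ESC, CIMEF and DMEF, and not in the knockout. The labels do not say that courses came from separate animals, so p-values measure the spread between these libraries, which may be technical. Cyrano itself was not measured in the knockout libraries; miR-7a-5p, which Cyrano is known to destroy, had a log2 difference of 4.96 ± 0.15 (standard error, SE) in knockout against CIMEF input libraries.

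A miRNA hairpin that sits in an intron of a host gene is cut out of the host's primary transcript by the Microprocessor, and Dicer then releases a duplex from which one strand is loaded into Argonaute and the other is usually lost quickly. miR-708 is known as such an intronic miRNA of Tenm4. Both are known to be induced with CHOP (Ddit3), a transcription factor of the endoplasmic reticulum stress response, which is how teneurin-4 was first found.

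The sequences below are from RefSeq, build GRCm38.p6, 5′ to 3′, with the seed (bases 2 to 8, the part that pairs with targets) in capitals. They are shown because miR-708-5p and miR-28a-5p share a seed and could be taken for each other.
miR-708-5p: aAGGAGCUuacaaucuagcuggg
miR-28a-5p: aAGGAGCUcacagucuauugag
miR-708-3p: cAACUAGAcugugagcuucuag
miR-28a-3p: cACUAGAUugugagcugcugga
The 5p strands of miR-708 and miR-28a were the same at 16 of 22 aligned positions, and differed by U9C, A13G, G18U, C19U, U20G and G21A, counted from 1 at the 5′ end with the miR-708-5p base first. The 3p strands have different seeds. miR-708-5p holds 5 uridines and miR-708-3p holds 6, against a median of 6 over the 831 measured miRNAs with a sequence, so the strands differ by 1 in the positions that 5EU can take.

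The miR-708 hairpin lies at chr7:96249424-96249532 (GRCm38.p6), on the same strand as Tenm4 and inside its span of chr7:96171244-96911093. It begins 78180 bases downstream of the annotated start of Tenm4 and 37753 bases downstream of a second annotated start. The first start's promoter window, chr7:96170994-96171293 on the plus strand, is shown because host and miRNA can share it, with a match to TGCAAT, the core letters of the composite element that CHOP and C/EBP factors are known to bind, in capitals.
Tenm4 promoter: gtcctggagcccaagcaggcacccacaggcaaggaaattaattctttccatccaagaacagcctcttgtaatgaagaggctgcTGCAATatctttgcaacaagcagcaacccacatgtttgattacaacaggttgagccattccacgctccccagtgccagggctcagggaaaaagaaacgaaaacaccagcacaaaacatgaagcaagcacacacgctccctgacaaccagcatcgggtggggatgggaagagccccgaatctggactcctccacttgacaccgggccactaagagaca
TGCAAT, searched on both strands, occurred 1 time here, 167 bases before the start, and 0 times in the window of the second start. It occurred in 8.4% of all 32851 RefSeq promoter windows of the same length.

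Input libraries held 912688 to 9117300 miRNA counts, labelled EU libraries 7922 to 2463188 and mRNA libraries 23030907 to 34093791. miR-708-5p had at least 1 count in 93 of 94 small-RNA libraries and miR-708-3p in 88. Levels are CPM, a feature's count scaled to a fixed library total (for small RNA, the total over mouse miRNAs), and limits on a count of 0 cover counting error only. The summed level of 5 fibroblast markers was 783 and 864 CPM in ESC, 17200 and 22000 CPM in CIMEF and 15700 and 15400 CPM in DMEF. In CIMEF most of it came from Col1a1 (7110 and 8950 CPM) and Col1a2 (8250 and 9910 CPM). The CIMEF libraries differed in Thy1, at 36.4 and 1.17 CPM, and in Pdgfra, at 150 and 505 CPM. Vim had 1680 and 2660 CPM in CIMEF and 4280 and 4880 CPM in DMEF. The 4 stem cell markers summed to 1620 and 1690 CPM in ESC, 15.7 and 10.4 CPM in CIMEF and 11.3 and 15.2 CPM in DMEF. Of 15 markers of neural, muscle, macrophage, endothelial and epithelial cells, Myog and Adgre1 had no count in any mRNA library. The 4 neural markers summed to 548 and 480 CPM in CIMEF and 544 and 485 CPM in DMEF, and to less in ESC. Their members went opposite ways. Map2 was higher in CIMEF (522 and 452 CPM) than in DMEF (321 and 273 CPM). Nes was lower in CIMEF (25.1 and 26.8 against 218 and 206 CPM), as was Tubb3 (1.12 and 0.999 against 4.71 and 5.9 CPM). The 3 endothelial markers summed to 72.9 and 78.4 CPM in ESC, 3.88 and 2.56 CPM in CIMEF and 15.8 and 13.5 CPM in DMEF. The muscle and the macrophage markers each summed to at most 8.55 CPM in a library. The 2 epithelial markers summed to 1180 and 1190 CPM in ESC, 25.6 and 8.99 CPM in CIMEF and 8.15 and 10.6 CPM in DMEF. Which cells the RNA of these markers came from was not tested, nor was the part of such cells in the results.

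In the input, every library of dividing fibroblasts had less of both strands of miR-708 than any library of the other lines. Summed over the libraries of a course, input miR-708-5p stood at 2425 CPM in the knockout course, at 1423 and 1528 CPM in the ESC courses, at 690 and 656 CPM in the CIMEF courses and at 55.9 and 22.0 CPM in the DMEF courses. No library of one of these lines overlapped with DMEF, since the highest of 13 DMEF libraries had 71.9 CPM and the lowest of the 6 knockout, 13 ESC and 15 CIMEF libraries had 901, 1223 and 387 CPM. The share of all miRNAs without such an overlap was not counted. The knockout and CIMEF overlapped at 1 week, and ESC stood above all CIMEF libraries. The miRNA ranked 73rd to 88th among the miRNAs of ESC libraries, 84th to 137th in CIMEF and 259th to 380th in DMEF.

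miR-708-3p, the minor strand, followed the same order at a lower level. Its summed input level was 100 CPM in the knockout course, 84.8 and 91.4 CPM in the ESC courses, 29.7 and 39.9 CPM in the CIMEF courses and 2.4 and 1.69 CPM in the DMEF courses. One DMEF library had no count of it among 1324780, which allows up to 2.26 CPM. Scaled by edgeR's trimmed mean (TMM), the log2 difference CIMEF minus DMEF was 4.50 ± 0.65 for 5p and 4.50 ± 0.58 for 3p, and that of ESC minus DMEF was 4.96 ± 0.66 and 5.16 ± 0.60 (SE, 2 courses a line). The difference ESC minus CIMEF was 0.46 ± 0.56 for 5p and 0.66 ± 0.50 for 3p, no larger than about its error. Relative to its mean, DMEF was the line whose courses lay furthest apart, with 39.0 ± 24.0 CPM for 5p (SD, n = 2), against 1476 ± 74.2 in ESC and 673 ± 24.0 in CIMEF. Without DMEF course 1 or course 2 the log2 difference of 5p was 5.47 or 3.74 for CIMEF minus DMEF, and 5.96 or 4.19 for ESC minus DMEF.

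**Figure D1:**
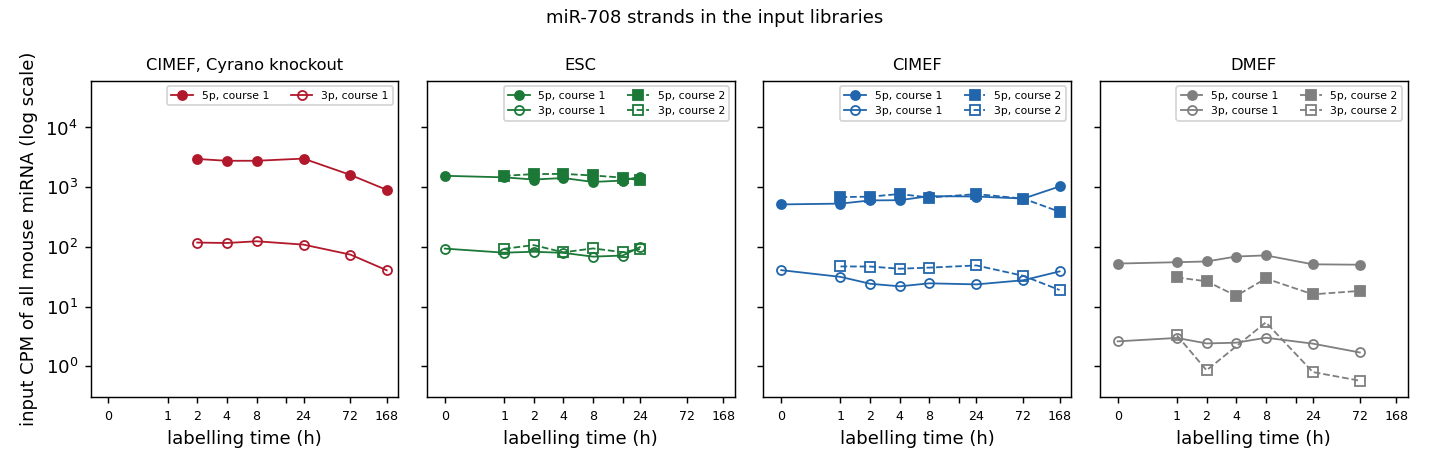
Input CPM of miR-708-5p (filled) and miR-708-3p (open) in every input library, on a log axis, against labelling time in hours, with circles and solid lines for course 1 and squares and dashed lines for course 2; the library without a 3p count is not drawn. The 5p strand lies between 15.1 and 71.9 CPM in DMEF and above 387 CPM or at it in every other library, and falls to 901 CPM at 1 week in the knockout.

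Tenm4 mRNA was also lowest in dividing fibroblasts. The gene had 84.2 and 85.1 CPM in the ESC libraries, 166 and 112 CPM in the CIMEF libraries and 9.04 and 6.78 CPM in the DMEF libraries, from 2174, 1982, 4439, 2581, 263 and 231 counts. No groups overlapped, and the CIMEF libraries lay furthest apart. With 2 libraries per line other genes can be apart in the same way, and their share was not counted. edgeR's quasi-likelihood test gave a log2 difference of 3.95 ± 0.26 for CIMEF minus DMEF (adjusted p = 0.000422), 3.07 ± 0.25 for ESC minus DMEF (adjusted p = 6.29e-05) and -0.88 ± 0.23 for ESC minus CIMEF (adjusted p = 0.0105), adjusted over 18094 genes. Such calls were common. For CIMEF minus DMEF 19.5% of genes passed as higher and 21.1% as lower, for ESC minus DMEF 30.3% and 30.5%, and for ESC minus CIMEF 38.2% and 37.7%. The call of ESC against CIMEF was lost without ESC library 2 (adjusted p = 0.0543).

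Host and miRNA therefore shared the order of CIMEF over DMEF and of ESC over DMEF, and went opposite ways between ESC and CIMEF: Tenm4 mRNA was lower in ESC, while input miR-708-5p had the higher CPM there, a difference within its error after scaling. The log2 difference CIMEF minus DMEF was 3.95 for Tenm4 mRNA and 4.50 for each strand, and that of ESC minus DMEF was 3.07 for Tenm4 mRNA, 4.96 for 5p and 5.16 for 3p. In bulk samples, fewer expressing cells and less RNA per cell cannot be told apart. The hairpin's own row in the mRNA table held at most 2 counts in a library and was not used.

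**Figure D2:**
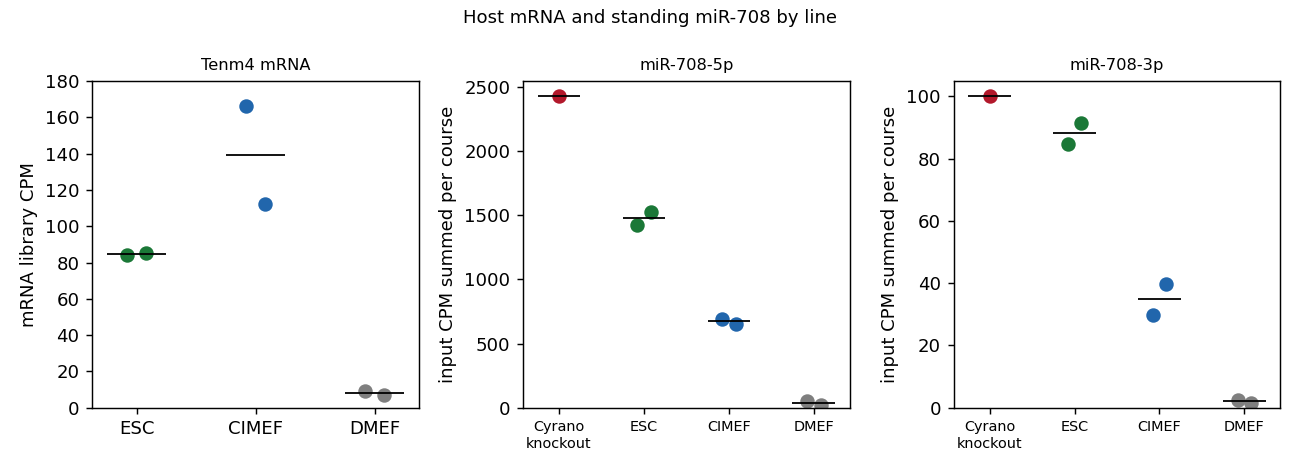
CPM of Tenm4 in each mRNA library (left) and input CPM of miR-708-5p (middle) and miR-708-3p (right) summed per course, by line; each point is 1 library or course and the bar is the mean. Tenm4 is highest in CIMEF, at 166 and 112 CPM, while both strands have more CPM in ESC than in CIMEF, and all 3 members are lowest in DMEF.

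None of the 6 nearest tested genes around Tenm4 had its order of levels, CIMEF over ESC over DMEF, with the CIMEF minus DMEF and the ESC minus DMEF difference called higher. Nars2, a mitochondrial asparaginyl-tRNA synthetase gene 39746 bases away, had 15.0 and 14.7 CPM in ESC, 6.73 and 5.47 CPM in CIMEF and 7.08 and 6.6 CPM in DMEF. Gab2, a signalling adaptor 170658 bases away, had 1.16 and 1.2 CPM in ESC, 16.7 and 14 CPM in CIMEF and 22.2 and 28.9 CPM in DMEF, and was lower in CIMEF than in DMEF (log2 -0.91 ± 0.21, adjusted p = 0.0133). Usp35, a deubiquitinase gene 398310 bases away, was higher in CIMEF than in DMEF (log2 1.29 ± 0.27, adjusted p = 0.0103). On the other side, the nearest tested genes Gm8309, Gm15501 and Fam181b lay farther off, at 707687, 2987068 and 3089522 bases. They had at most 1.42 CPM in any library, and none of the 3 was called between CIMEF and DMEF.

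Of the teneurins and their partners (a list of 14 genes, 11 of them tested), CIMEF had 5 higher and 2 lower than DMEF, with a median log2 difference of 0.62 against 0.00 over all genes, of which 19.5% were higher and 21.1% lower. Tenm4 had the largest difference. Tenm3, a related teneurin, had 193 and 209 CPM in ESC, 79.4 and 71.7 CPM in CIMEF and 22.1 and 19.4 CPM in DMEF, and was higher in CIMEF than in DMEF (log2 1.68 ± 0.15, adjusted p = 0.000819). Adgrl3, a latrophilin that binds teneurins, had 2.71 and 2.83 CPM in ESC, 141 and 201 CPM in CIMEF and 34.4 and 23.2 CPM in DMEF, a difference of 2.38 ± 0.27 for CIMEF minus DMEF (adjusted p = 0.00144). Unc5b, a netrin receptor that binds FLRT proteins, was lower in CIMEF (log2 -1.5 ± 0.16, adjusted p = 0.00132). Tenm1 was the teneurin seen mainly in ESC, with 7.82 and 7.56 CPM there and at most 0.309 CPM in fibroblast libraries, and Tenm2 had 1 count or none per library. Set against DMEF, ESC had 3 of the 11 genes higher and 7 lower (median log2 -3.44 against 0.06 over all genes, with 30.3% higher and 30.5% lower). Set against CIMEF, ESC had 2 higher and 8 lower (median -1.94 against 0.06, with 38.2% higher and 37.7% lower over all genes).

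Of 18 genes of the unfolded protein response and of CHOP, CIMEF had 2 higher and 6 lower than DMEF (median log2 -0.36 against 0.00 over all genes, of which 19.5% were higher and 21.1% lower). Ddit3, which encodes CHOP, had 3.83 and 4.6 CPM in ESC, 35.8 and 50.6 CPM in CIMEF and 16.7 and 22.8 CPM in DMEF, and was higher in CIMEF than in DMEF (log2 0.96 ± 0.23, adjusted p = 0.0181) and lower in ESC than in CIMEF (log2 -3.53 ± 0.26, adjusted p = 3.06e-05). Of the wild-type lines ESC had the least Ddit3 mRNA and the highest unscaled CPM of miR-708. After scaling, the ESC minus CIMEF difference of miR-708 was no larger than about its error (log2 0.46 ± 0.56 for 5p and 0.66 ± 0.50 for 3p). A link between the 2 was not tested. Also lower in CIMEF were the transcription factor Xbp1 (log2 -1.61 ± 0.15, adjusted p = 0.000898), the chaperone complex member Sdf2l1 (log2 -1.24 ± 0.29, adjusted p = 0.0145) and the chaperone BiP, Hspa5 (log2 -0.87 ± 0.14, adjusted p = 0.00449). Against DMEF, ESC had 1 of the 18 genes higher and 11 lower (median log2 -0.68), where 30.3% and 30.5% of all genes were. Against CIMEF it had 4 higher and 8 lower (median -0.54), where 38.2% and 37.7% of all genes were.

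Of 7 mRNAs reported as miR-708 targets, 6 were tested, and in CIMEF against DMEF 2 were higher and 2 lower (median log2 0.33), beside 19.5% and 21.1% of all genes. Cd44, the hyaluronan receptor, had 3.91 and 5.2 CPM in ESC, 72.5 and 96.8 CPM in CIMEF and 449 and 496 CPM in DMEF. Its log2 difference CIMEF minus DMEF was -2.66 ± 0.19 (edgeR, adjusted p = 0.000504). The order of Cd44 was the reverse of that of unscaled miR-708 CPM in these 3 lines, where ESC minus CIMEF of miR-708 was no larger than about its error after scaling. Birc5 (survivin) was lower in CIMEF (log2 -1.19 ± 0.14, adjusted p = 0.0016), but higher in ESC than in CIMEF (log2 1.88 ± 0.14, adjusted p = 3.26e-05). The repressor Zeb2 (log2 1.11 ± 0.13, adjusted p = 0.00164) and the Polycomb gene Bmi1 (log2 0.65 ± 0.13, adjusted p = 0.00843) were higher in CIMEF, where miR-708 CPM was also higher. In ESC against DMEF 2 of the 6 were higher and 3 lower (median log2 -1.41), beside 30.3% and 30.5% of all genes. In ESC against CIMEF again 2 were higher and 3 lower (median -1.74), beside 38.2% and 37.7%.

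miR-28a-5p, which shares the seed of miR-708-5p, followed another order of lines. Input miR-28a-5p, whose hairpin lies on chromosome 16, had a TMM-scaled level of 2220 CPM in the knockout course, 103 and 106 CPM in the ESC courses, 1750 and 1490 CPM in the CIMEF courses and 2860 and 2020 CPM in the DMEF courses. It was lower in ESC than in DMEF (log2 -4.54 ± 0.42, adjusted p = 0.00069) and than in CIMEF (log2 -3.95 ± 0.41, adjusted p = 0.000843), where 25% and 29.2% of 812 miRNAs were called lower; on the same scale miR-708-5p had 1110 and 1160 CPM in the ESC courses. Scaled miR-708-5p had 3250 CPM in the knockout course, 838 and 820 CPM in the CIMEF courses and 54.4 and 18.6 CPM in the DMEF courses. Of the miRNAs with the seed AGGAGCU, miR-708-5p therefore had the larger level in ESC and the knockout, and miR-28a-5p in CIMEF and DMEF. miR-151-5p, which is named beside the miR-28 family and whose sequence was not compared here, had 579 and 548 CPM in ESC, 1510 and 1710 CPM in CIMEF and 1300 and 1100 CPM in DMEF. miR-28a-3p and miR-151-3p were likewise lower in ESC than in CIMEF (log2 -3.78 ± 0.47 and -1.30 ± 0.44, adjusted p = 0.00148 and 0.0463). miR-28b and miR-28c were not among the counted miRNAs.

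By Pearson's r of log2 CPM over the 7 summed input courses, the miRNA most like miR-708-5p was its own partner strand (r = 0.992), followed by miR-450b-5p (0.949), miR-219a-5p (0.947), miR-335-3p (0.945) and miR-378ac-3p (0.920). Over the 6 mRNA libraries the genes most like Tenm4 were Atp1b2 (r = 0.999), Efcab2 (0.998), Gm16845 (0.997), Ccdc189 (0.997) and Slc25a36 (0.996). These points are courses or libraries of 3 or 4 lines, so r describes the contrast between lines. Atp1b2, a sodium pump subunit, had the widest range of these genes, with scaled levels of 19.8 and 21.6 CPM in ESC, 53.4 and 35.1 CPM in CIMEF and 1.08 and 0.709 CPM in DMEF.

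In contact-inhibited fibroblasts without Cyrano, both strands of miR-708 were about 3-fold more abundant in the input than in wild-type CIMEF. At the 6 shared times, miR-708-5p had 901 CPM at the lowest, a median of 2768 and 3010 CPM at the highest in knockout libraries, against 387, 681 and 1028 CPM in the 12 CIMEF libraries. The groups overlapped only in that the knockout library at 1 week lay below the CIMEF course 1 library of that time. The log2 difference was 1.72 ± 0.22 for 5p, a 3.29-fold difference (edgeR quasi-likelihood, adjusted p = 8.26e-05), and 1.54 ± 0.22 for 3p (adjusted p = 0.000152), where 23.6% of 517 miRNAs were called higher. The knockout has a single course, whose times serve as its replicates here, and with counts summed per course the adjusted p was 0.404 for each strand. miR-28a-5p, with the same seed, had a log2 difference of 0.30 ± 0.15 in the input (adjusted p = 0.098) and was called higher in EU libraries (0.57 ± 0.13, adjusted p = 0.00483). miR-151-5p was called higher in both, at 0.42 ± 0.06 in the input (adjusted p = 0.00026) and 0.55 ± 0.14 in EU libraries (adjusted p = 0.00901). With synthetic standards as the library size the input differences of miR-708 turned to -4.74 for 5p (adjusted p = 0.0212) and -4.58 for 3p (adjusted p = 0.0287), and counts of these standards per miRNA count were 0.0276 to 0.0409 per 1000 in CIMEF course 1 and 4.43 to 5.43 in course 2.

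The excess of miR-708 in the knockout was smaller in the libraries after 24 h of labelling than in those up to 24 h. Up to 24 h the 4 knockout libraries had 2766 to 3010 CPM of 5p and the 8 CIMEF libraries 600 to 769 CPM, a log2 difference of 1.90 (edgeR quasi-likelihood, adjusted p = 1.05e-06). As above, the times of 1 knockout course serve as its replicates, so this p-value does not measure a spread between knockout courses. At 72 h and 1 week the knockout had 1602 and 901 CPM, against 644 and 1028 CPM in CIMEF course 1 and 643 and 387 CPM in CIMEF course 2, a log2 difference of 0.77 (adjusted p = 0.419). The CIMEF courses went opposite ways at 1 week. For 3p the difference was 1.63 up to 24 h and 0.83 after. This division by time was chosen after the data were seen, and the change over time itself was not tested. Time in culture and time with 5EU rose together, so they cannot be told apart.

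Labelled miR-708-5p was higher in the knockout as well. The 6 knockout EU libraries had 544 CPM at the lowest, a median of 3197 and 4797 CPM at the highest, against 318, 839 and 1034 CPM in the 12 CIMEF EU libraries, a log2 difference of 1.67 ± 0.26 (edgeR quasi-likelihood, adjusted p = 0.000415). With counts summed per course this call was lost (log2 1.83, adjusted p = 0.534). For 3p the knockout had 13.7, 257 and 927 CPM and CIMEF 15.0, 92.2 and 393 CPM, a difference of 0.96 ± 0.39 that missed the threshold (adjusted p = 0.0748) and passed it without CIMEF course 1 (1.02, adjusted p = 0.00106). Of 383 miRNAs, 20.1% were called higher. After 24 h the difference was 0.36 for 5p and -0.75 for 3p, and neither was called. Tenm4 mRNA was not measured in the knockout.

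During labelling the input level of miR-708 did not change by a call in any wild-type line. The slope of miR-708-5p on log2(hours + 1) was -0.05 ± 0.02 in ESC (adjusted p = 0.202), 0.05 ± 0.03 in CIMEF (adjusted p = 0.265) and -0.02 ± 0.03 in DMEF (adjusted p = 0.678), where 4.73%, 25.6% and 25.7% of miRNAs were called in either direction. In CIMEF the slope was 0.12 without course 2 (adjusted p = 0.0241) and -0.06 without course 1, and at 1 week 5p stood at 1028 CPM in course 1 and at 387 CPM in course 2. miR-708-3p had slopes of -0.03 ± 0.03 in ESC and -0.04 ± 0.03 in CIMEF, neither called, and was too low in DMEF to be tested.

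The strand ratio changed during labelling. In newly labelled RNA, 3p made up a much larger part of miR-708 than in the standing pool. In CIMEF course 2 the EU libraries had 1.85 counts of 5p for each 3p count at 1 h, 2.2 at 2 h, 4.43 at 4 h, 7.88 at 8 h, 17.8 at 24 h, 21.4 at 72 h and 21.2 at 1 week. In the knockout the ratio was 3.45 at 2 h, 8.29 at 4 h, 12.4 at 8 h, 24.8 at 24 h, 34.3 at 72 h and 39.8 at 1 week, and at the last 2 times lay above the 21.6 to 27.7 of its input libraries. The ESC ratios rest on 1 to 12 counts of 3p per library. In ESC course 1 they were 4.0, 3.0, 19.0, 4.62, 15.2 and 15.3 at 1, 2, 4, 8, 16 and 24 h, in no steady order, and in ESC course 2 they were 3.14 at 2 h, 6.42 at 4 h, 13.5 at 8 h, 9.75 at 16 h and 20.6 at 24 h.

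**Figure D3:**
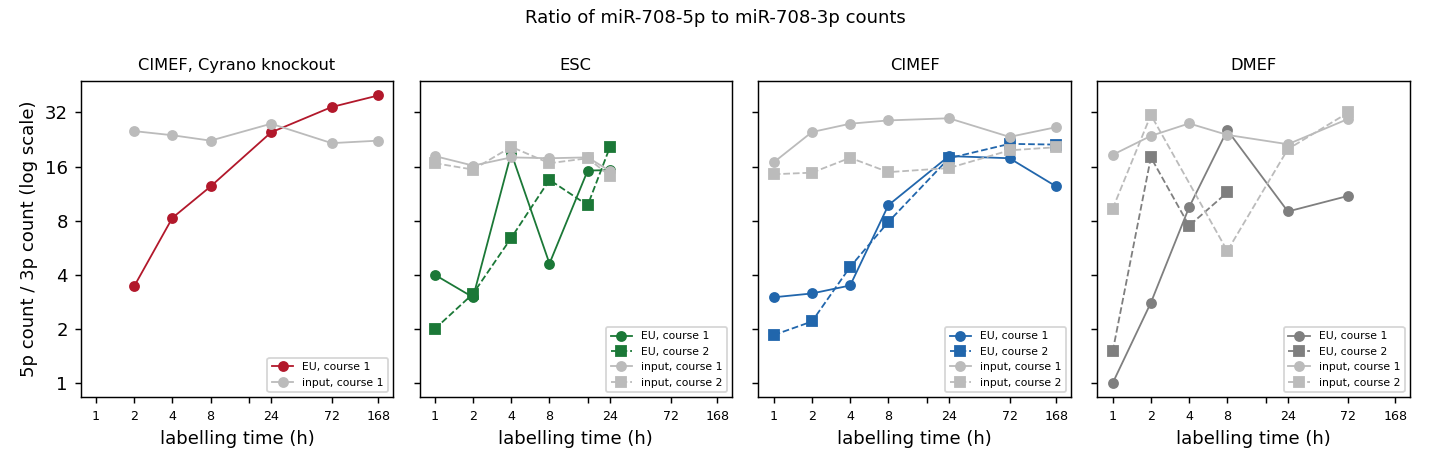
Count of miR-708-5p divided by the count of miR-708-3p (log axis) against labelling time in hours, in EU libraries (coloured or dark) and input libraries (light grey), by line and course; libraries without a 3p count are not drawn. In CIMEF and the knockout the EU ratio starts between 1.85 and 3.45 and lies between 17.8 and 24.8 at 24 h, while DMEF points rest on few 3p counts.

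Pooled over 1 to 4 h, EU libraries held 5.87 counts of 5p per 3p count in the knockout, 5.83 and 5.05 in ESC, 3.36 and 2.75 in CIMEF and 3.89 and 7.2 in DMEF. The input pools held 24.2 in the knockout, 16.8 and 16.7 in ESC, 23.2 and 16.4 in CIMEF and 23.3 and 13 in DMEF. The ratio was lower in the new pool in 7 of 7 courses, by a mean log2 difference of -2.05 ± 0.67 (SD, n = 7), or 4.14-fold (exact two-sided sign-flip permutation test, p = 0.0156, the smallest that 7 courses allow; adjusted over the 2 ratio tests, p = 0.0156). Against EU libraries of 24 h and later the difference was -2.15 ± 0.77 (SD, n = 7), again lower in 7 of 7 courses (exact permutation test, p = 0.0156, adjusted p = 0.0156). The counts behind DMEF were few, with 9 and 5 counts of 3p in the new pools and 2 and 0 in the late pools. The libraries at 0 h, with no label, held 1, 18 and 0 counts of 5p in ESC, CIMEF and DMEF course 1 and no 3p count.

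miR-708 was ordinary in this respect. Of 71 hairpins with enough counts of both strands in all courses, 51 had a lower ratio of the more abundant strand to its partner in the new pool in 7 of 7 courses, which is 71.8%. The median difference was -2.36 and miR-708 ranked 42nd from the most negative. miR-151, in contrast, had a difference of 0.68.

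As a share of all miRNA in the pool, 3p had a higher CPM in the new pool than in the input in all 7 courses, and 5p in the 5 courses that were not ESC. Unscaled, 5p had 3995 CPM new and 2425 CPM standing in the knockout, 959 and 930 CPM new against 1423 and 1528 CPM standing in ESC, 792 and 854 CPM new against 690 and 656 CPM standing in CIMEF, and 68.1 and 41.8 CPM new against 55.9 and 22.0 CPM standing in DMEF. miR-708-3p had 681 CPM new and 100 CPM standing in the knockout, 164 and 184 against 84.8 and 91.4 CPM in ESC, 236 and 310 against 29.7 and 39.9 CPM in CIMEF, and 17.5 and 5.8 against 2.4 and 1.69 CPM in DMEF. Scaled by TMM the median of all 742 miRNAs was itself below 0, at -0.65 in the knockout, -1.26 in ESC, -0.69 in CIMEF and -0.25 in DMEF.

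Beside those medians, 3p had a log2 difference of 1.91 ± 0.46 in the knockout (adjusted p = 0.000195), 0.10 ± 0.44 in ESC (adjusted p = 0.933), 2.09 ± 0.33 in CIMEF (adjusted p = 3.06e-09) and 2.03 ± 0.58 in DMEF (adjusted p = 0.00182), by edgeR's quasi-likelihood test. The share of miRNAs called higher was 13.9%, 6.6%, 17.8% and 19% in these lines, and the share called lower was 19.8%, 33%, 29.6% and 22.5%. miR-708-5p was at -0.14 ± 0.37 in the knockout, -0.59 ± 0.27 in CIMEF and 0.20 ± 0.31 in DMEF, with no call. In ESC it was called lower, at -1.56 ± 0.29 (adjusted p = 8.39e-07), close to the median of all miRNAs there. That value was -0.90 with RLE scaling, -0.89 with DESeq2 and -2.34 with an EU pool of 1 to 2 h, and called in each. It was -2.55 without CIMEF course 2, -2.55 without DMEF course 1 and -2.50 without DMEF course 2. Without DMEF course 1, the 3p difference in DMEF was no longer called (log2 1.30, adjusted p = 0.407).

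EU counts were also scaled to 3 synthetic standards that had 225 or more counts in each EU library and at most 27 in an input library; the labels do not state their role. In CIMEF course 2, labelled miR-708-5p climbed for longer than 3p. There the 5p strand had 0.215 counts per 1000 standard counts at 1 h, 4.98 at 4 h, 12 at 8 h, 29.7 at 72 h and 28.4 at 1 week. The 3p strand had 0.116 at 1 h, 1.12 at 4 h, 1.52 at 8 h, 1.12 at 24 h, 1.39 at 72 h and 1.34 at 1 week, a narrow range from 4 h on. In the knockout 5p had 7.97 at 2 h, 82.2 at 24 h and 33.0 at 1 week, a lower value after 24 h, as its input level was. CIMEF course 1 is less well set, with only 225 to 2985 counts of these standards per labelled library. Its 5p strand had 4.02 at 1 h, 665 at 24 h and 2750 at 1 week, and its unlabelled 0 h library, with 687 standard counts, had 26.2. Its 3p strand had 1.34 at 1 h, 36.3 at 24 h and 222 at 1 week, so that both strands were highest at the last time. The DMEF courses were also loosely scaled, with 441 to 2987 counts of these standards per labelled library in course 1 and 653 to 10784 in course 2. In DMEF course 1 the 5p strand was highest at 8 h, at 39.8 from 51 counts. The 3p strand had at most 5 counts in a labelled library there, and its highest value, 2.27 at 24 h, came from 1 count.

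**Figure D4:**
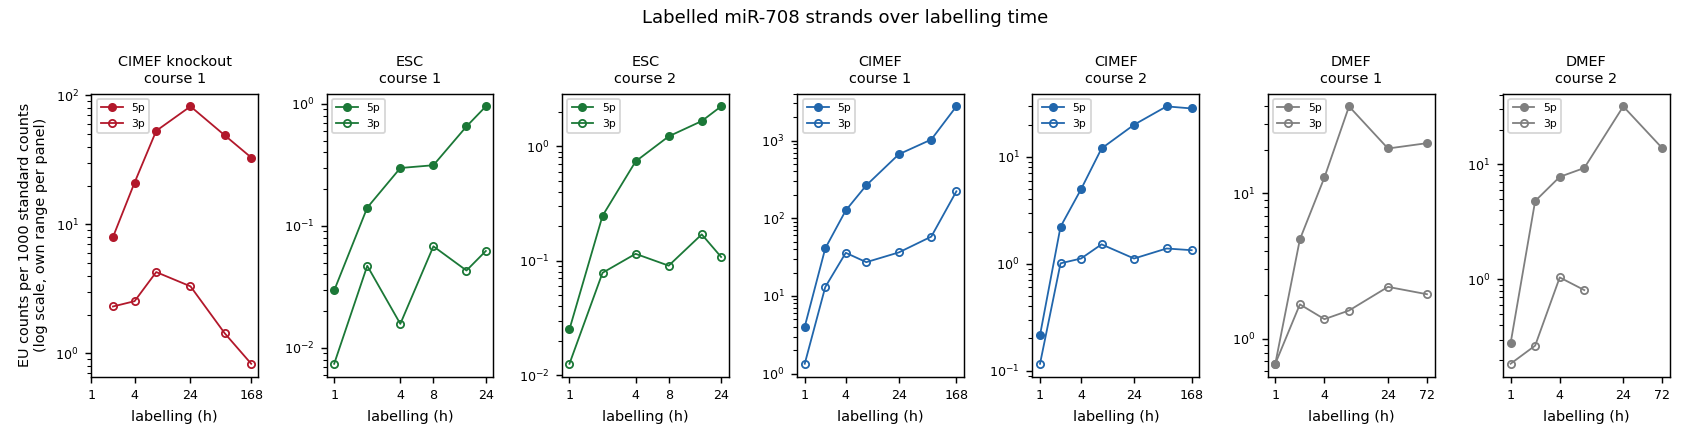
EU counts of miR-708-5p (filled) and miR-708-3p (open) per 1000 counts of these 3 standards against labelling time in hours, both axes logarithmic with an own range in each panel, 1 panel per course; values of 0 are not drawn. In CIMEF course 2 the 5p strand climbs from 0.215 at 1 h to 29.7 at 72 h while the 3p strand stays between 1.01 and 1.52 from 2 h on; in the knockout both fall after 24 h.

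Half-lives were fitted per course as the approach of labelled RNA to a plateau. They are loosely set, and hold the loss by cell division as well as decay. Their intervals start from a log-scale scatter of 0.2 beside counting error and were widened where the scatter about a fit was larger. That scatter was 0.23 to 0.6 for miR-708. With 6 or 7 times per fit, the intervals may still be too narrow. For miR-708-5p the half-life was 5.51 h in the knockout (95% profile interval 2.13 to 12.7 h), 18.5 and 15.3 h in ESC, 132 and 22.6 h in CIMEF, and 5.2 and 8.73 h in DMEF. The intervals of CIMEF courses 1 and 2 reached from 28.2 h to the end of the grid and from 7.18 to 135 h, those of ESC began at 5.83 and 4.35 h and also ran to the end of the grid, and those of DMEF spanned 1.12 to 28.9 h and 1.95 to 108 h. For miR-708-3p the half-life was 0.618 h in the knockout (at most 3.39 h), and 15.5 h (3.17 to 145 h) and 2.43 h (0.754 to 6.29 h) in the CIMEF courses. In each of these 3 courses the half-life of 3p was the shorter. The intervals of the strands overlapped in the knockout and in CIMEF course 1, and lay just apart in CIMEF course 2.

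Between lines, the log2 half-life of 5p was longer in CIMEF than in DMEF by 3.02 ± 0.70 (limma, adjusted p = 0.000112) and shorter in ESC than in CIMEF, at -1.70 ± 0.70 (adjusted p = 0.0178), where 80% and 93.3% of the 45 miRNAs fitted in all courses were called and the median differences were 2.19 and -2.95. ESC minus DMEF was 1.32 ± 0.70 (adjusted p = 0.251), with 0% called by limma and 7 of 45 at an unadjusted p under 0.05. Knockout minus CIMEF was -3.31 ± 0.86 (adjusted p = 0.0041; 28.9% called, median -1.75), but the knockout is 1 fitted value assumed to vary like the courses of the other lines, and its input level was lower after 24 h, so that a plateau was not held. Without CIMEF course 1 this difference was -2.04 (adjusted p = 0.117). CIMEF minus DMEF was 1.75 without CIMEF course 1 and 4.30 without course 2. Input 5p of CIMEF also moved, from 514 CPM at 0 h to 1028 CPM at 1 week in course 1. In course 2 it went from 683 CPM at 1 h to 387 CPM at 1 week, so a plateau may not have been held in CIMEF either. The limma test took each fitted half-life as 1 value and left out its wide interval. Fitted without the last time, 5p was at 42.2 h in DMEF course 2, between the CIMEF courses at 53.7 and 29.5 h. DMEF course 1 then had no fit. ESC minus CIMEF was no longer called without CIMEF course 1 (-0.43, adjusted p = 0.574), ESC course 1 (-1.84, adjusted p = 0.0505) or ESC course 2 (-1.57, adjusted p = 0.1).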

How the data were processed

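The deposited values are raw read counts per mature miRNA or gene, made by the authors; the submitters' processing notes name cutadapt for all samples, and STAR 2.4, HTSeq 0.9.1 and build mm10/GRCm38 for all but the knockout and ESC course 2. Strand settings and use of the adapters' random bases are not given in the sources used here. All 100 columns were used; the column of 5 DMEF course 2 times may hold either or both of 2 sequencing runs.

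The members and lists were chosen with earlier results of these data known. Named genes were the members, up to 4 called genes per list with the largest CIMEF minus DMEF difference, seed relatives, nearest neighbours and the 5 most like; Tenm1, Tenm2 and others outside that rule were named after their values were seen. 1 listed gene is not reported here.

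Deposited counts were fitted with edgeR 4.0.16 in R 4.3.3 (TMM scaling, expression filter, quasi-likelihood test), with Benjamini-Hochberg adjustment over all features tested and a threshold of 0.05. Fits: 6 mRNA libraries; input summed per course (7 courses); knockout against CIMEF library by library, with time as a factor; input slopes on log2(hours + 1) with course as a term; and EU of 1 to 4 h against input, blocked by course. DESeq2 1.42.0 was an alternative. Ratios used log2 of counts plus 0.5 and at least 10 counts per pool (SciPy 1.17.1). Half-lives were fitted as A(1 - exp(-kt)) to EU counts per standard count, less the 0 h value where one exists, over 400 grid values from 0.25 h to 10 times the last time, with a log-scale scatter of 0.2 plus counting error, for miRNAs with 10 counts in at least 4 libraries, and compared with limma 3.58.1. The choice of these 3 standards, whose role the labels do not state, was made after the data were seen. A half-life in dividing cells includes dilution. Scripts were tested on simulated data. Of 14, 18 and 7 list genes all had a row. Replicate numbers were not taken as pairs: deviations of same-numbered mRNA libraries correlated at -0.00781 to 0.0294 between lines, those of input courses at 0.099 to 0.221.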

Additional observations from a re-analysis of the deposited data

Results flagged for a closer look

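Several input values of miR-708 stood apart from the other libraries of their course, by the gap to the nearest library relative to the whole range. miR-708-5p had 1028 CPM at 1 week in CIMEF course 1, above the rest, and 387 CPM at 1 week in CIMEF course 2, below the rest. miR-708-3p had 18.9 CPM at 1 week in CIMEF course 2 and 1.7 CPM at 72 h in DMEF course 1, both below the rest, the last of them from 14 counts. All 4 were the last time point of their course. In all, 16 groups of values were looked at, of which chance flags about 1 in 20.

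Unscaled, newly labelled miR-708-5p was above its input share in every course of the knockout, CIMEF and DMEF and below it in both ESC courses. The log2 ratio of new to standing CPM was 0.72 in the knockout, -0.57 and -0.72 in ESC, 0.2 and 0.38 in CIMEF and 0.28 and 0.93 in DMEF. ESC differed from the others by 1.36 for the knockout, 0.94 for CIMEF and 1.25 for DMEF, each as that line minus ESC. This difference between lines was not tested.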

How the results depend on the processing

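The difference in Tenm4 mRNA kept its direction in all 30 alternatives and its call in 29; leaving out 1 library each gave log2 values of 3.71 to 4.24 (CIMEF minus DMEF), 2.88 to 3.37 (ESC minus DMEF) and -1.15 to -0.66 (ESC minus CIMEF), and with a replicate block the values were 3.94, 3.09 and -0.85. With input courses under a replicate block, 3p was at 4.61 (ESC minus DMEF) and ESC minus CIMEF at 0.09 (5p) and 0.28 (3p); RLE scaling gave 0.67 for 5p. Without 1 course each, 5p ran from 3.74 to 5.47 for CIMEF minus DMEF and from 4.19 to 5.96 for ESC minus DMEF, ESC minus DMEF of 3p ran from 4.67 to 5.59 and ESC minus CIMEF of 5p from 0.43 to 0.51. The sequencing standards, which are not the 3 used for the half-lives, were also used as library size. CIMEF minus DMEF then kept its direction, at 4.62 ± 4.75 for 5p and 4.63 ± 5.01 for 3p (SE), errors as large as the values. The input differences ESC minus DMEF, ESC minus CIMEF and knockout minus CIMEF reversed. They were -2.69 (5p) and -2.21 (3p) for ESC minus DMEF, and -7.31 and -6.84 for ESC minus CIMEF. For knockout minus CIMEF they were -4.74 and -4.58 (edgeR quasi-likelihood, adjusted p = 0.0212 and 0.0287, called lower). Input counts of the sequencing standards per miRNA count differed between courses of 1 line, from 0.0276 per 1000 in CIMEF course 1 to 5.43 in course 2. In EU libraries, with the 3 standards of the half-lives as library size, knockout minus CIMEF was -2.28 and -2.89, neither called. Knockout values with counts summed per course were 1.86 and 1.65 in the input and 1.83 for 5p in EU libraries (adjusted p = 0.404, 0.404 and 0.534, none called). After 24 h they were 0.77 and 0.83 in the input and 0.36 and -0.75 in EU libraries, and up to 24 h 3p in EU libraries was called at 1.46. Over all times, that strand's EU difference ran from 0.88 to 1.02 without 1 CIMEF course, and was called at 1.02.

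Input slopes without 1 course ran from -0.06 to 0.12 (5p, CIMEF) and -0.13 to 0.02 (3p, CIMEF), and the DMEF slope of 5p was 0.02 without its last time. New against standing, an EU pool of 1 to 2 h gave -0.96 for 5p in CIMEF, now called, and -0.16 in DMEF; with no filter 3p in ESC was at -0.20. Leaving out 1 course, 5p ran from -2.55 to -1.54 in ESC, -0.55 to 0.45 in DMEF and -0.14 to 0.12 in the knockout, and 3p from -0.86 to 0.19 in ESC and 1.30 to 2.03 in DMEF. The strand ratio kept its direction throughout; with at least 50 counts 4 courses remained, with -2.29 and -2.30 (exact permutation p = 0.125, the smallest possible), because fewer courses enter.

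Half-lives depended on the scaling. Per miRNA total, 5p was at 3.92 and 1.84 h in ESC, 0.706 h in CIMEF course 2 and 0.972 and 1.05 h in DMEF. The 5p value of the knockout and the 3p values of both CIMEF courses lay at 0.25 h, the lower end of the grid, and are limits. With the sequencing standards 5p was at 1.75 h in the knockout, 4.28 h in ESC course 2, 23.1 h in CIMEF course 1 and 1.7 h in DMEF course 2. Between lines, leaving out 1 course gave 1.75 to 4.30 for CIMEF minus DMEF, -2.98 to -0.43 for ESC minus CIMEF and -4.59 to -2.04 for knockout minus CIMEF. With equal weights, without the last time or with the sequencing standards, 5p lay outside the grid or was not fitted in 1 course, so that test gave no value. With equal weights 5p was at 335 and 27 h in CIMEF, at 8.23 and 11.8 h in DMEF and at 240 h, the end of the grid, in ESC course 2. Where no cause is named, it was not tested. Depth limits DMEF most, with 13 counts of 3p in all input libraries of course 2.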
